A study of Mus musculus with 9 samples.

Results

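The mouse mitochondrial genome encodes 37 genes, and all 37 were among the 54876 genes of the expression table. They were chosen by their chromosome, MT, and comprise 13 mRNAs, 2 rRNAs and 22 tRNAs. The plus strand of the annotation carries 28 of them (12 mRNAs, both rRNAs and 14 tRNAs) and the minus strand carries 9 (mt-Nd6 and 8 tRNAs). Expression was measured by RNA sequencing in MIN6 cells, a mouse insulinoma line labelled C57BL/6 that stands in for the beta cells of the pancreas. The cells were kept for 24 h in medium (written DEME in the labels) with 0.1 (low), 1 (standard) or 20 (high) times the standard arginine concentration, and each medium had 3 libraries. The comparisons ask how a shortage or an excess of this amino acid alters the transcriptome. No genetic change or further agent is named in the labels, and all groups are 1 cell line.

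Mitochondrial DNA is transcribed from both strands into long precursors that span many genes. In the usual account, the precursors are cut at the tRNAs that lie between the mRNAs and rRNAs, and the released mRNAs receive short poly(A) tails. The mRNAs encode core subunits of respiratory complexes I, III, IV and V, and the rRNAs and tRNAs serve the ribosome inside the organelle. In beta cells, ATP made by this chain closes the potassium channel that couples glucose to insulin release.

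Reads in genes numbered 21550637 to 26300872 per library. Of the 10 beta cell markers, 9 were tested, and Ins2 had a mean of 50209 FPKM (fragments per kilobase of gene length, scaled to library size). Slc2a2, which encodes the glucose transporter of mouse beta cells, was at 0 to 0.0331 FPKM. Hormones of other islet cells were present, with Sst at a mean of 7097, Ppy at 49.4 and Gcg at 23.0 FPKM, whereas none of the 11 stromal, endothelial, immune, duct or acinar markers was tested and the highest of them, Cd68, had a mean of 0.324 FPKM. Any part of these markers in the results was not tested. In bulk RNA, fewer cells of a type and less RNA per cell cannot be told apart.

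The genes lie end to end. Of the 36 neighbouring pairs, 9 overlap and 26 others are separated by 0 to 5 bases. The remaining gap, 32 bases, separates mt-Tn from mt-Tc. The tRNA genes on which the results turn, and the gene for the arginine tRNA, are printed below from GENCODE M21 transcripts (GRCm38), 5′ to 3′, with capitals for the bases that a gene shares with its neighbour. mt-Ti (isoleucine, MT:3706-3774, plus strand), mt-Ts2 (serine, MT:11613-11671, plus), mt-Tl2 (leucine, MT:11671-11741, plus) and mt-Tr (arginine, MT:9808-9875, plus) are read in one direction, and mt-Tn (asparagine, MT:5089-5159), mt-Tc (cysteine, MT:5192-5257) and mt-Ty (tyrosine, MT:5260-5326) in the other.
mt-Ti: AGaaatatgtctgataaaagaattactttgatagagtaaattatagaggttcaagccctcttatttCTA
mt-Ts2: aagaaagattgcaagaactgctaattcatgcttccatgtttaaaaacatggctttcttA
mt-Tl2: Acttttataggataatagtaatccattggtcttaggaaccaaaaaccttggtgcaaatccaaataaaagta
mt-Tr: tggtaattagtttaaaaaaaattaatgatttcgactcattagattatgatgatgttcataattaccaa
mt-Tn: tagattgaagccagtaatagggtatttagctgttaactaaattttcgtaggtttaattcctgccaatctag
mt-Tc: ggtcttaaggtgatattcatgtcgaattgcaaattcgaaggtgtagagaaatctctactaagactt
mt-Ty: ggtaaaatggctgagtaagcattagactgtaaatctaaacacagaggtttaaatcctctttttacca

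mt-Ti shares 2 bases with mt-Nd1 and 3 with mt-Tq, and mt-Ts2 shares its last base with mt-Tl2. The protein-coding genes overlap further. mt-Atp8 and mt-Atp6, which encode ATP synthase subunits, share 43 bases, mt-Nd4l and mt-Nd4 share 7, and mt-Nd5 and mt-Nd6, on opposite strands, share 14. The shared stretches (capitals) are shown at the end of mt-Nd4l (MT:10114-10173), the start of mt-Nd4 (MT:10167-10226) and the end of mt-Atp8 (MT:7910-7969), because a read in them belongs to both genes.
mt-Nd4l, last 60 bases: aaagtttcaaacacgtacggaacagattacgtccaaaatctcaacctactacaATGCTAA
mt-Nd4, first 60 bases: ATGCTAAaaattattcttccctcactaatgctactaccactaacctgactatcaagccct
mt-Atp8, last 60 bases: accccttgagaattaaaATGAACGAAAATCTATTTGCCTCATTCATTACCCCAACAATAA

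Several of the mRNAs also have near-identical copies in the nuclear genome. A block of 7 unprocessed pseudogenes on the minus strand of chromosome 1 (chr1:24611535-24616197, GRCm38) holds Gm28661, identical to mt-Co2 over 681 of 681 bases, Gm28437, identical to mt-Co3 over 783, Gm10925, identical to mt-Atp6 over 678, Gm10222, identical to mt-Nd4l over 294, and Gm28439, identical to the first 876 bases of mt-Nd4. Gm28438 matches mt-Nd3 at 344 of 345 bases and differs by T3C, counted from base 1 of mt-Nd3. The order is kept as well. Starts were 914, 680 and 852 bases apart in both places for mt-Co2 to mt-Atp6, mt-Atp6 to mt-Co3 and mt-Co3 to mt-Nd3, and 418 bases (MT) and 419 bases (chromosome 1) apart for mt-Nd3 to mt-Nd4l. The starts of both versions of mt-Nd3 show how little separates them, with the differing base in capitals (MT:9459-9578 and, on the minus strand, chr1:24613000-24613119).
mt-Nd3, first 120 bases: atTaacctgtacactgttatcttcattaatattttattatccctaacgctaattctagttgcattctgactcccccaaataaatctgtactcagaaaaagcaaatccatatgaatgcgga
Gm28438, first 120 bases: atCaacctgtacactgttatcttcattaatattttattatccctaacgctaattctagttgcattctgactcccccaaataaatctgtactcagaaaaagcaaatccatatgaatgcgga

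The share of a gene's 50-base windows found in annotated nuclear transcripts was 100% for mt-Co2, 99.9% for mt-Co3, 99.5% for mt-Atp6, 98.8% for mt-Nd4l and 98.0% for mt-Nd3. It was 62.2% for mt-Nd4 and 51.1% for mt-Co1, 8.19% for mt-Nd2, 7.61% for mt-Nd5, 1.04% for mt-Rnr2 and 0% for mt-Nd1, mt-Nd6, mt-Cytb, mt-Atp8, mt-Rnr1 and the tRNAs. The 5 mRNAs that are copied almost whole were at 2.20 to 42.9 FPKM in the 9 libraries, and the other mRNAs except mt-Atp8 at 173 to 3063 FPKM. Sources used here do not say how reads that match both places were counted, so the levels of the copied mRNAs, and those of mt-Nd4 and mt-Co1, are uncertain. Only annotated transcripts were searched, not the stretches between genes of the chromosome 1 block. With the spacing kept, mt-Ts1, mt-Td, mt-Tk, mt-Atp8, mt-Tg and mt-Tr would lie wholly or mostly in such stretches. Whether they are copied there was not checked, and their levels are uncertain as well. The copies' part in these levels was not tested.

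**Figure D1:**
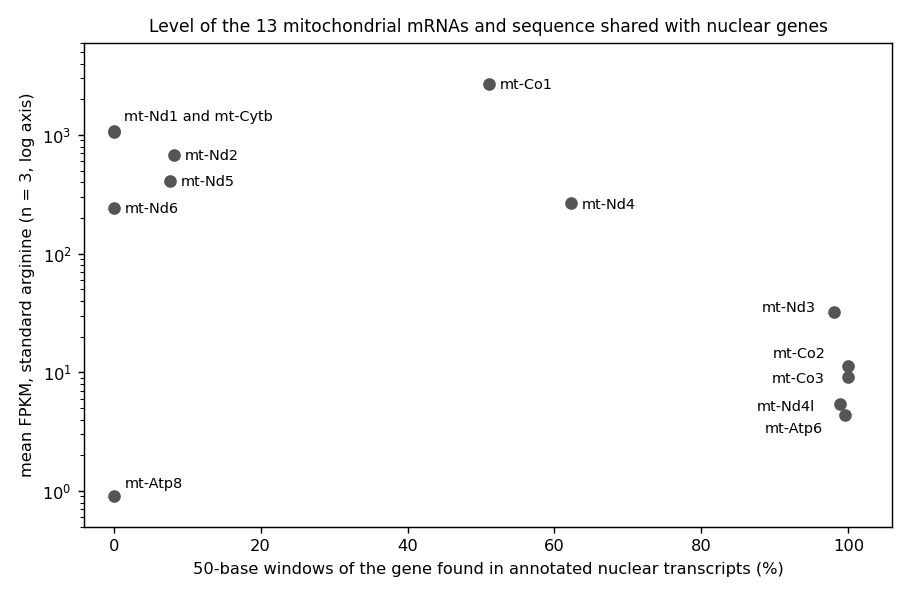
Mean FPKM of the 13 mitochondrial mRNAs in the 3 standard arginine libraries (log axis) against the percentage of each gene's 50-base windows found in annotated nuclear transcripts. The 5 mRNAs at 98.0% or above lie below 42.9 FPKM, and mt-Atp8 lies lowest at 0% shared windows. Nuclear sequence outside annotated transcripts was not searched.

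The mRNAs differed widely in level. In standard arginine, mt-Co1, the catalytic subunit of complex IV, was highest at 2690.2 ± 114 FPKM (SD, n = 3 here and below). mt-Nd1 at 1074 ± 144 and mt-Cytb at 1069 ± 164 came next and did not differ beyond their spread, followed by mt-Nd2 at 679.6 ± 48.1 and mt-Nd5 at 411 ± 43.4. mt-Nd4 at 267 ± 39.6 and mt-Nd6 at 245 ± 23.7 also lay within their spread of each other. The rRNAs of the small and large ribosomal subunit, mt-Rnr1 and mt-Rnr2, were at 154 ± 15.6 and 83.1 ± 9.49 FPKM, below these mRNAs. The lowest mRNA, mt-Atp8, had 0 to 9 reads per library, and mt-Atp6, which overlaps it, was at 4.37 ± 1.18 FPKM.

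**Figure D2:**
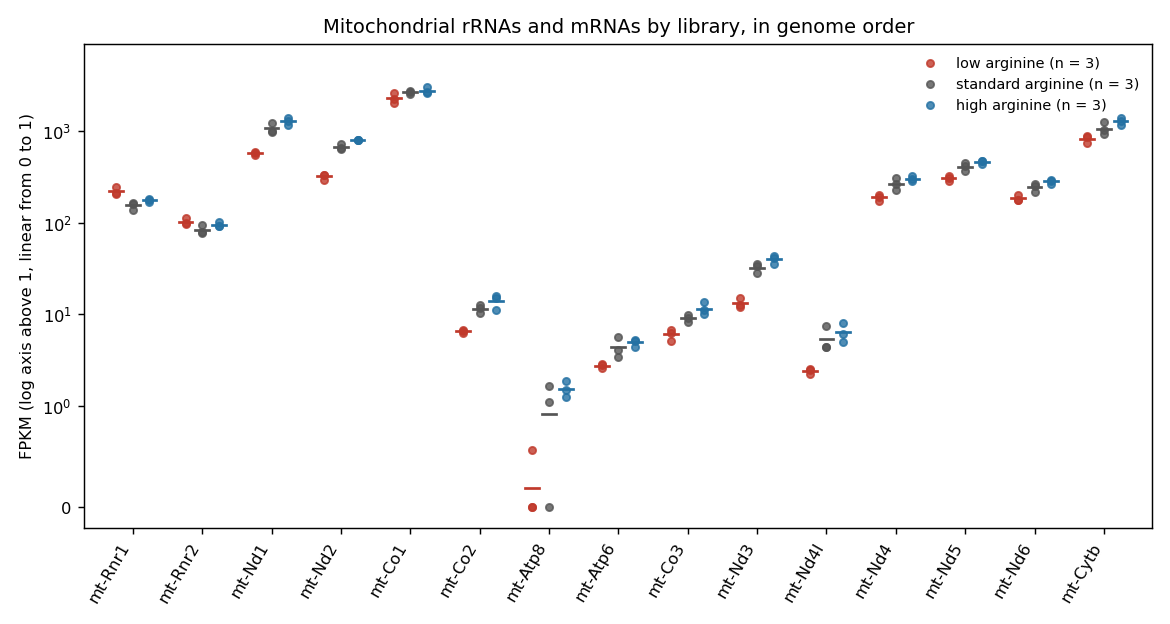
FPKM of the 2 rRNAs and 13 mRNAs in genome order, 1 point per library and a line at each group's mean (n = 3; log axis above 1, linear below). The low arginine points lie above the standard ones for both rRNAs and below them for 11 of the 13 mRNAs, with overlap for mt-Co1 and mt-Atp8.

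In low arginine, most mitochondrial mRNAs fell while both rRNAs rose. Against standard arginine, 11 of the 13 mRNAs were lower at an adjusted p under 0.05 (limma, Benjamini-Hochberg over the 12300 genes tested), the same 11 whose low and standard libraries did not overlap, and none was higher. The median change of the 13 was -0.53 on the log2(FPKM + 1) scale, against 0.001 over all genes tested. Change was widespread in this comparison: 31.9% of all genes were called lower and 30.3% higher (62.2% together), and 33.4% lay with every low library below every standard one. Of the 30 mitochondrial genes that passed the filter on low values, 19 were lower, 3 higher and 8 not called. The 7 untested genes are all tRNAs.

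The 7 mRNAs of complex I, the NADH dehydrogenase, were all lower, with a median change of -0.89. mt-Nd3 (MT:9459-9806) read 12.6, 11.9 and 15 FPKM in low arginine, 33.6, 27.9 and 35.7 with standard and 41.4, 35.1 and 42.9 with high arginine. Every low library was under every other one, and the change was -1.24 (SE 0.11, adjusted p = 4.95e-06), the largest of any mRNA, for a gene whose sequence the nuclear copy shares. mt-Nd2 (MT:3914-4951), which has few windows in nuclear transcripts, read 335, 297 and 332 FPKM in low, 656, 648 and 735 in standard and 793, 796 and 808 with high arginine. It changed by -1.08 (SE 0.07, adjusted p = 3.44e-07). mt-Nd1 (MT:2751-3707), which has no such window, read 557, 591 and 573 FPKM in low, 1013, 971 and 1239 in standard and 1174, 1382 and 1287 with high arginine. It changed by -0.90 (SE 0.09, adjusted p = 1.3e-05).

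The complex I genes further along the genome fell less, apart from mt-Nd4l. mt-Nd4l (MT:9877-10173), with 18 to 56 reads per library, went from 5.41 ± 1.8 to 2.38 ± 0.163 FPKM, a change of -0.89 (SE 0.18, adjusted p = 0.00165). Its partner mt-Nd4 (MT:10167-11544) went from 267 ± 39.6 to 189 ± 14.4 FPKM, a change of -0.49 (SE 0.10, adjusted p = 0.00189). mt-Nd5 (MT:11742-13565) read 326, 306 and 284 FPKM in low, 419, 365 and 450.2 in standard and 472, 475 and 438 with high arginine, a change of -0.42 in low against standard (SE 0.08, adjusted p = 0.00111). mt-Nd6 (MT:13552-14070), the minus strand's mRNA, read 200.2, 179 and 178 FPKM in low, 250.3, 219 and 266 in standard and 297, 289.6 and 262 with high arginine, a change of -0.40 (SE 0.08, adjusted p = 0.00177). The low libraries lay under the standard ones for each of these genes. After quantile normalization the calls of mt-Nd4 (-0.26, adjusted p = 0.0901), mt-Nd5 (-0.14, adjusted p = 0.224) and mt-Nd6 (-0.19, adjusted p = 0.104) were lost.

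Of the 3 complex IV mRNAs, 2 were called lower, and whether the 3 changes differ was not tested. mt-Co1 (MT:5328-6872) read 2056, 2625 and 2270.3 FPKM in low, 2564, 2786 and 2719.6 in standard and 2623, 3063 and 2661 with high arginine. Low and standard libraries overlapped, and the change of -0.22 (95% interval -0.43 to -0.02) was not called (adjusted p = 0.0574). This call lay near the threshold. The gene was called lower at a mean FPKM filter of 5 (adjusted p = 0.0403), with voom weights (adjusted p = 0.0313), without low arginine replicate 2 (-0.32, adjusted p = 0.0106) and without high arginine replicate 2 (adjusted p = 0.0498), and higher after quantile normalization (0.24, adjusted p = 0.0224). mt-Co2 (MT:7013-7696), which carries the entry site for electrons from cytochrome c, read 6.29, 6.57 and 6.75 FPKM in low against 10.2, 11.6 and 12.6 in standard arginine and fell by 0.72 (SE 0.12, adjusted p = 0.000355). mt-Co3 (MT:8607-9390) read 5.15, 6.25 and 6.70 against 9.18, 8.24 and 9.93 FPKM and fell by 0.53 (SE 0.11, adjusted p = 0.00203). Both are genes that the nuclear block copies whole.

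For complex III, mt-Cytb (MT:14145-15288) encodes cytochrome b. It read 749, 890.2 and 859 FPKM in low, 1032, 927 and 1248 in standard and 1174, 1404 and 1288 with high arginine, a change of -0.35 in low against standard (SE 0.11, adjusted p = 0.0175). The call was lost without low arginine replicate 1 (-0.28, adjusted p = 0.0662), without standard arginine replicate 3 (-0.24, adjusted p = 0.0545), in TPM (-0.23, adjusted p = 0.15) and after quantile normalization, where the change was 0.00 (adjusted p = 0.982). For complex V, mt-Atp6 (MT:7927-8607), part of the proton channel, read 2.80, 2.56 and 2.87 FPKM in low against 4.03, 3.40 and 5.68 in standard arginine and fell by 0.50 (SE 0.13, adjusted p = 0.0065). mt-Atp8 (MT:7766-7969) read 3, 0 and 0 reads in low, 0, 7 and 5 in standard and 6, 7 and 9 with high arginine, and its change of -0.61 in low against standard (SE 0.31) was not called (adjusted p = 0.11).

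**Figure D3:**
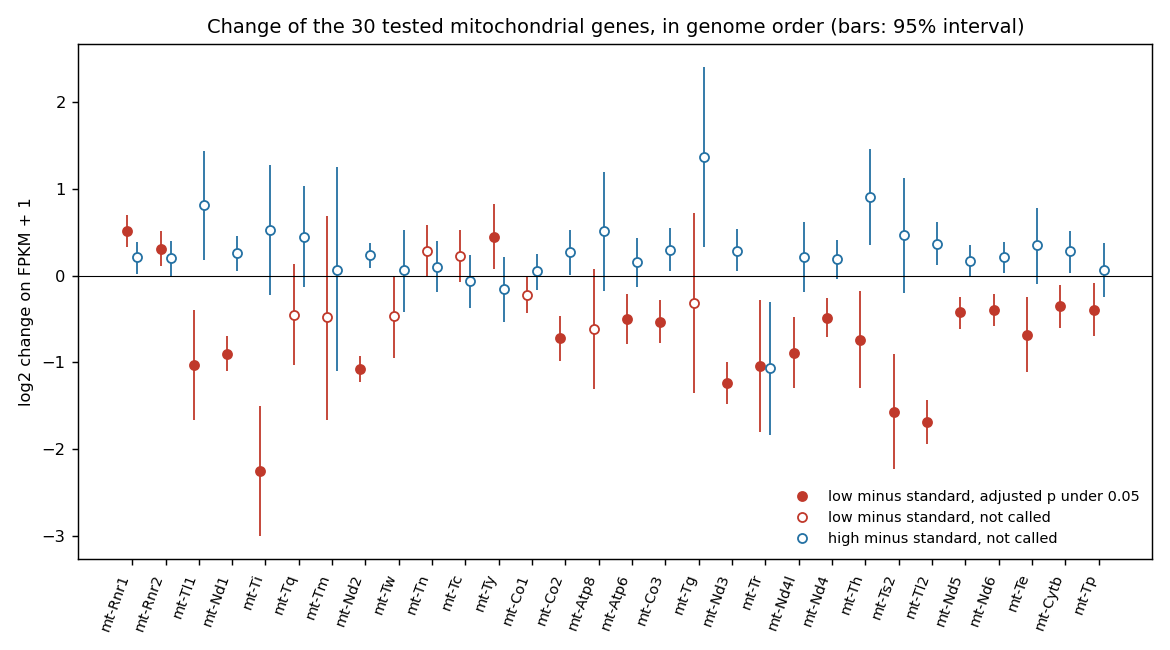
Log2 change on FPKM + 1 of the 30 tested mitochondrial genes in genome order, low minus standard (red) and high minus standard (blue) arginine, with 95% intervals; filled points have an adjusted p under 0.05. The low arginine points run from 0.52 (mt-Rnr1) to -2.25 (mt-Ti), and no high arginine point is filled.

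Both ribosomal RNAs were higher in low arginine. They lie upstream of mt-Nd1 on the same strand, with the tRNA gene mt-Tl1 between mt-Rnr2 and mt-Nd1. mt-Rnr1 (MT:70-1024), the RNA of the small subunit, read 243, 208 and 211 FPKM in low, 137, 162 and 165 in standard and 170.1, 184 and 179.5 with high arginine. All 3 low libraries exceeded the other 6, and the rise over standard arginine was 0.52 (SE 0.08, adjusted p = 0.000368). mt-Rnr2 (MT:1094-2675), the RNA of the large subunit, read 114, 96.3 and 98.4 FPKM in low, 78.3, 76.9 and 94.0 in standard and 91.6, 91.9 and 102 with high arginine. Its rise of 0.31 (SE 0.09, adjusted p = 0.0129) was lost without low arginine replicate 1 (0.23, adjusted p = 0.0504) and without standard arginine replicate 2 (0.26, adjusted p = 0.0508). Sources used here do not say whether ribosomal RNA was depleted or poly(A) RNA selected, either of which bears on the rRNA levels.

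The tRNA genes are described by strand. Of the 22, 15 passed the filter, 9 on the plus and 6 on the minus strand. Among the plus strand tRNAs, 6 of 9 were lower in low arginine and none higher, with a median change of -1.03. Among the minus strand tRNAs, 2 were lower, 1 higher and 3 not called, with a median of -0.08. Over all genes 31.9% were lower and 30.3% higher, and 2 of 6 lower is near that share. The difference between strands was not tested. The genes are 59 to 75 bases long, and whether their reads came from mature tRNAs or from longer transcripts was not tested.

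On the plus strand, the largest changes had few reads behind them, apart from that of mt-Tl2. mt-Ti, between mt-Nd1 and mt-Tq, had 0, 2 and 3 reads in low, 19, 8 and 9 in standard and 14, 23 and 17 with high arginine, and changed by -2.25 in low against standard (SE 0.34, adjusted p = 0.000201). mt-Tl2, which lies just before mt-Nd5, had 53, 59 and 68 reads in low, 179, 123 and 189 in standard and 208, 211 and 238 with high arginine. In FPKM it read 28.4, 30.1 and 34.0 in low and 105, 83.6 and 118 in standard arginine, and it changed by -1.69 (SE 0.11, adjusted p = 6.12e-07). For both genes every low library lay below every standard one. Its neighbour mt-Ts2 had 7, 10 and 12 reads in low, 45, 13 and 28 in standard and 43, 37 and 33 with high arginine, a change of -1.57 (SE 0.30, adjusted p = 0.00103).

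The other plus strand calls were less firm. mt-Tl1, the second leucine tRNA, had 6, 6 and 15 reads in low and 11, 17 and 20 in standard arginine, a change of -1.03 (SE 0.28, adjusted p = 0.00895), lost with array weights (-0.67, adjusted p = 0.0719). mt-Th, for histidine, had 12, 16 and 15 reads in low and 25, 12 and 28 in standard arginine, a change of -0.74 (SE 0.25, adjusted p = 0.0245), lost without low arginine replicate 1 or standard arginine replicate 1 or 3 (adjusted p = 0.0732, 0.0783 and 0.0965). Both have low libraries that overlap the standard ones. mt-Tw (tryptophan; -0.47, adjusted p = 0.0779), mt-Tg (glycine; -0.32, adjusted p = 0.576) and mt-Tm (methionine; -0.48, adjusted p = 0.449) were not called.

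The tRNA for arginine itself was among the scarcest. mt-Tr had 2, 4 and 2 reads in low, 3, 8 and 8 in standard and 1, 4 and 2 with high arginine. The low and standard libraries overlapped. Its change of -1.04 in low against standard (SE 0.35, adjusted p = 0.0226) was lost in 4 of the 6 fits that left out a low or standard library, with adjusted p = 0.0635 without low arginine replicate 1, 0.0676 without low replicate 3, 0.0857 without standard replicate 2 and 0.0802 without standard replicate 3. Its change in high against standard arginine was -1.06 (adjusted p = 0.213), the lowest of the 30 members there. Arginine codons (CGN) make up 64 of the 3800 codons of the 13 reading frames, or 1.68%. Per mRNA their share ran from 0% of codons in mt-Atp8 to 2.63% in mt-Co2, and any relation to the changes was not tested.

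On the minus strand, the abundant tRNAs were mt-Tp (proline), mt-Tc and mt-Tn. mt-Tp (MT:15356-15422) read 355, 508 and 520.5 FPKM in low, 545, 563 and 684 in standard and 569.9, 655 and 654 with high arginine, a change of -0.39 in low against standard (SE 0.14, adjusted p = 0.0334). The call was lost without low arginine replicate 1 (-0.21, adjusted p = 0.105) and without standard arginine replicate 3 (-0.29, adjusted p = 0.118), and the sign turned after quantile normalization (0.07, adjusted p = 0.734). mt-Te, for glutamate, read 17.1, 14.2 and 22.1 FPKM in low against 35.6, 21 and 31.6 in standard arginine, a change of -0.68 (SE 0.20, adjusted p = 0.0112).

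The cluster of minus strand tRNAs upstream of mt-Co1 had the opposite sign. mt-Ty read 39.8, 31.4 and 27.6 FPKM in low, 24.8, 23.8 and 21.9 in standard and 18.6, 28.5 and 17.4 with high arginine, a rise of 0.45 in low against standard (SE 0.17, adjusted p = 0.0383) on 28 to 70 reads per library. It was lost in 5 of the 6 fits that left out a low or standard library (adjusted p = 0.142 without low arginine replicate 1, 0.0635 without low replicate 2, and 0.0573, 0.073 and 0.102 without standard replicates 1, 2 and 3). mt-Tn read 223, 306 and 286 FPKM in low and 205, 232 and 226 in standard arginine, and its 0.28 (adjusted p = 0.0839) was not called. mt-Tc read 259.7, 387 and 364 against 264, 303 and 284 FPKM, and its 0.23 (adjusted p = 0.167) was not called either. Low arginine replicate 1 was the lowest of its group for both, and without it both were called, at 0.42 for mt-Tn (adjusted p = 0.0125) and 0.41 for mt-Tc (adjusted p = 0.00456). mt-Tq, for glutamine, had 0 to 4 reads per library and was not called (-0.45, adjusted p = 0.157). Of the 7 tRNAs not tested, mt-Tf, mt-Ts1, mt-Td and mt-Tk had 0 reads in every library, and mt-Tv, mt-Ta and mt-Tt had 7, 6 and 10 reads in all 9 together.

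**Figure D4:**
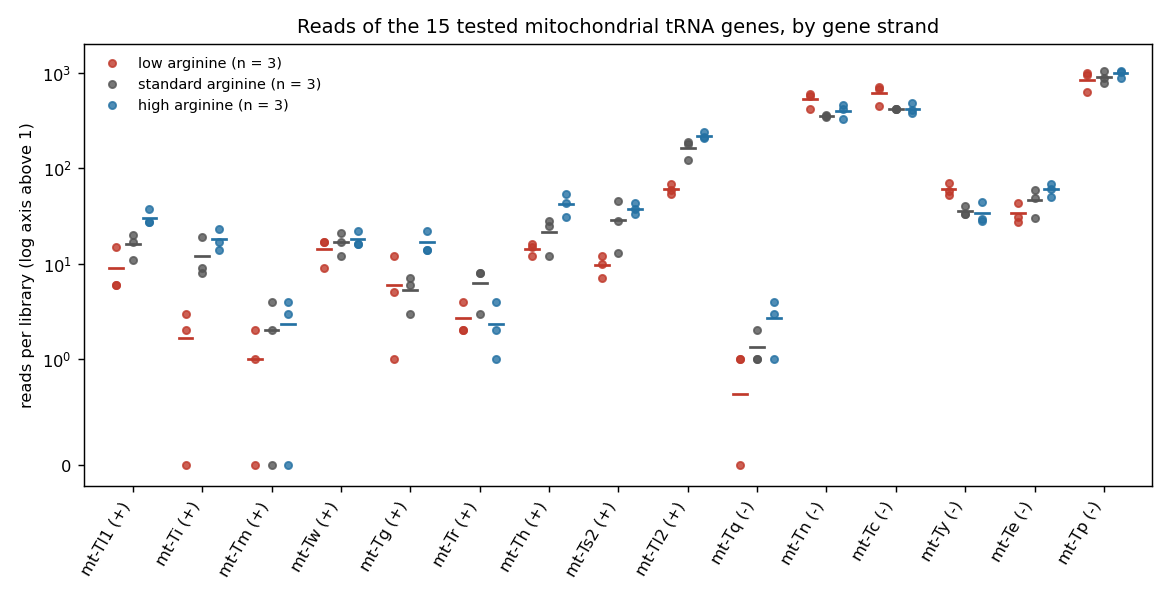
Reads per library of the 15 tested mitochondrial tRNA genes, 9 on the plus and 6 on the minus strand (n = 3 per group; log axis above 1, linear below; line at the mean). The low arginine points lie lowest for mt-Ti, mt-Ts2 and mt-Tl2 and highest for mt-Ty, and reads are not scaled for library size.

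Ratios within a library do not depend on the scaling between libraries. Except where a plan is named, they were chosen with the changes above known, and none has a test. The level of mt-Rnr1 relative to mt-Nd1 was 0.437, 0.352 and 0.369 in low, 0.135, 0.167 and 0.133 in standard and 0.145, 0.133 and 0.139 with high arginine, so the low libraries were well above all others. mt-Rnr2 relative to mt-Nd1 was 0.205, 0.163 and 0.172 in low and 0.0759 to 0.0793 in standard arginine. Against mt-Co1, mt-Nd1 was at 0.271, 0.225 and 0.252 in low and 0.395, 0.348 and 0.456 in standard arginine, and mt-Nd2 was at 0.163, 0.113 and 0.146 against 0.256, 0.233 and 0.270. Low and standard libraries did not overlap in these 4 ratios, whereas standard and high libraries did. By plan, mt-Rnr1 relative to mt-Rnr2 was also taken, at 2.13 to 2.16 in low and 1.75 to 2.1 in standard arginine. The planned mt-Nd4l to mt-Nd4 was 0.0121 to 0.013 in low and 0.0166 to 0.0243 in standard arginine. Low and standard libraries overlapped for the planned mt-Atp8 to mt-Atp6. They also did for mt-Nd6 to the mean of mt-Nd1, mt-Nd2, mt-Co1, mt-Nd4, mt-Nd5 and mt-Cytb.

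mt-Tl2 relative to mt-Nd5, the gene that follows it, was 0.0872, 0.0984 and 0.120 in low, 0.250, 0.229 and 0.263 in standard and 0.267, 0.272 and 0.319 with high arginine. The minus strand mRNA showed no such shift against its plus strand neighbour. mt-Nd6 relative to mt-Nd5 was 0.584 to 0.625 in low, 0.590 to 0.601 in standard and 0.599 to 0.630 with high arginine, and the groups overlapped. The libraries were made with a directional kit, but whether strand was used in counting is not stated in the labels. Reads of mt-Nd6 and the minus strand tRNAs therefore cannot be told apart from transcripts of the opposite strand.

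**Figure D5:**
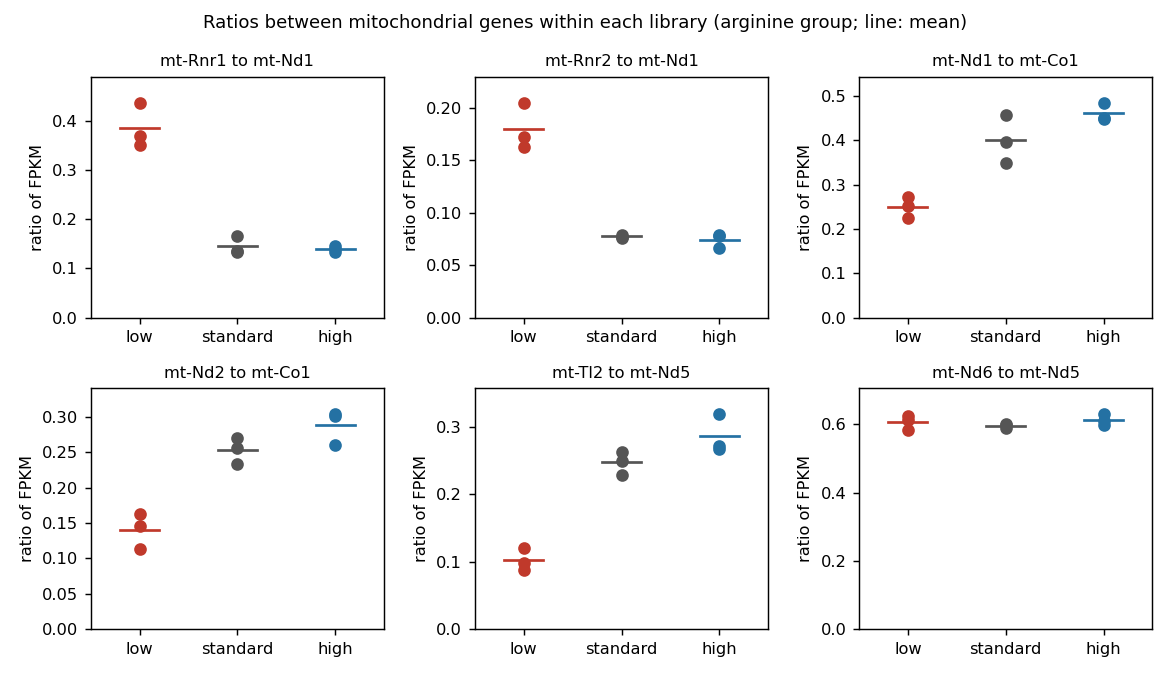
Ratio of FPKM between pairs of mitochondrial genes in each library (points, n = 3 per arginine group) with the group mean (line); each axis starts at 0. Low arginine lies apart from standard arginine in the first 5 ratios, while mt-Nd6 to mt-Nd5 overlaps between groups at 0.584 to 0.630.

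Shares of reads were compared next. Members took 0.675, 0.765 and 0.724% of reads in genes in low, 0.827, 0.813 and 0.955% in standard and 0.889, 1.01 and 0.942% with high arginine. Low libraries lay below all others, and standard and high libraries overlapped. rRNA reads went from 0.0276 ± 0.00319% in standard to 0.0397 ± 0.0036% in low arginine. Among mitochondrial mRNA reads, mt-Co1 took 56.3 ± 2.72% in low, 49.7 ± 3.30% in standard and 46.3 ± 0.966% with high arginine, and mt-Nd1 took 8.67 ± 0.39%, 12.2 ± 0.87% and 13.2 ± 0.416%.

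High arginine gave no called change in any of the 30 tested members. Over all genes, 0.309% were called in high against standard arginine, 0.138% higher and 0.171% lower. At an unadjusted p under 0.05, 13 members differed (limma), against 14.3% of all genes, and a fit with voom weights on the rebuilt reads called 0 as well. In all, 27 of the 30 had a change above 0, against 54.7% of all genes. The 13 mRNAs were all above 0, from 0.05 for mt-Co1 to 0.51 for mt-Atp8, with a median of 0.24 against 0.014 over all genes. mt-Nd2 changed by 0.24 (SE 0.07, adjusted p = 0.172) and mt-Nd1 by 0.26 (SE 0.09, adjusted p = 0.245). mt-Nd2 and mt-Co3 were the mRNAs whose high libraries all exceeded the standard ones, and with mt-Rnr1 and 4 tRNAs they made 7 members, against 10.4% of all genes. Those tRNAs included mt-Th (0.91, SE 0.25, adjusted p = 0.154) and mt-Tg (1.37, SE 0.47, adjusted p = 0.23). With array weights, which count noisier libraries less, 8 members were called higher, among them mt-Nd1 (0.37, adjusted p = 0.016) and mt-Rnr1 (0.30, adjusted p = 0.03).

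The direct comparison of high with low arginine also tests whether the responses to shortage and excess differ, because both responses share the standard libraries. All 13 mRNAs were higher in high arginine, with changes of 0.27 to 1.53 and a median of 0.83, against 32.3% of all genes called higher, 29.2% lower and 61.5% in all. For 12 of the 13 the groups did not overlap, against 35.3% of all genes. Among the 12 is mt-Atp8, which passed the filter on low values with no low arginine library at FPKM 1. mt-Nd3 differed by 1.53 (adjusted p = 1.06e-06), mt-Nd2 by 1.31 (adjusted p = 9.77e-08) and mt-Nd1 by 1.15 (adjusted p = 2.06e-06). mt-Co1 differed by 0.27 (SE 0.09, adjusted p = 0.0268), the smallest of the 13, and its call was lost without low arginine replicate 1 (0.19, adjusted p = 0.101), low replicate 3 (0.26, adjusted p = 0.0702) or high arginine replicate 2 (0.20, adjusted p = 0.113) and in TPM (0.14, adjusted p = 0.188). Of the rRNAs, mt-Rnr1 was lower by 0.31 on the log2 scale, a change of -0.31 (SE 0.08, adjusted p = 0.00881), and mt-Rnr2 at -0.11 (adjusted p = 0.307) was not called. Of the tRNAs, 9 were higher and 1, mt-Ty, was lower at -0.61 (adjusted p = 0.00993). mt-Ti (2.78, adjusted p = 4.32e-05) and mt-Tl2 (2.06, adjusted p = 1.55e-07) had the largest differences. Altogether 22 members were higher and 2 lower. The higher ones include mt-Atp8 and mt-Tq, which passed the filter only through standard and high libraries. For these genes the filter itself favours a higher value in high arginine.

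Mitochondrial transcripts are made, cut and read by proteins encoded in the nucleus, and these were examined as lists. The list for mitochondrial transcription also holds the Mterf family, whose members are not part of the polymerase complex. In low arginine 5 of the 7 tested (9 listed) were higher and none lower, with a median change of 0.26. Over all genes, 30.3% were higher and 31.9% lower in this comparison. Tfam, which packages the DNA and starts transcription, went from 11.1 ± 1.23 to 20.0 ± 2.01 FPKM, a rise of 0.79 (SE 0.10, adjusted p = 6.56e-05). The polymerase Polrmt rose by 0.26 (adjusted p = 0.00541), and Tfb2m, its partner in initiation, by 0.23 (adjusted p = 0.035). Mterf3, of the Mterf family, rose by 0.60 (adjusted p = 0.000102). What these rises mean for transcription was not tested. The call of Tfb2m was lost without low arginine replicate 2 or 3 (adjusted p = 0.115 and 0.0643) or standard arginine replicate 1 or 2 (adjusted p = 0.142 and 0.0556). Of the regulators of mitochondrial biogenesis, 5 of 7 tested were higher and 1 lower. Nrf1 (0.65, adjusted p = 7.06e-06) and Gabpb1 (0.75, adjusted p = 3.47e-06), factors that activate nuclear genes of the respiratory chain, rose, and Esrra, a nuclear receptor, fell (-0.56, adjusted p = 0.000442). Ppargc1a, a coactivator, was below the filter, at a mean of 0.866 FPKM in low and 0.617 in standard arginine.

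Factors acting on the RNA come next. Of 19 tested for processing, polyadenylation and decay, 9 were higher and 4 lower, where 30.3% of all genes were higher and 31.9% lower. Trmt10c, a subunit of the enzyme that cuts tRNAs at their 5′ end, rose by 0.61 (adjusted p = 0.000129), and Pde12, which removes poly(A) tails, rose by 0.76 (adjusted p = 3.97e-05). Rexo2, an exonuclease that degrades very short RNAs, went from 32.6 ± 2.01 to 16.3 ± 1.51 FPKM (-0.96, SE 0.07, adjusted p = 1.45e-06). Lrpprc, which stabilises mitochondrial mRNAs, fell from 7.70 ± 0.529 to 6.35 ± 0.155 FPKM (-0.24, adjusted p = 0.00535; -0.14, adjusted p = 0.0899 in TPM), and its partner Slirp was below the filter. Of 20 enzymes tested that modify rRNA or tRNA, 13 were higher and none lower, led by Trit1 (1.04, adjusted p = 9.68e-06) and Cdk5rap1 (0.76, adjusted p = 1.02e-05), which act in turn on the same base beside the anticodon. Of 11 tested for replication and the nucleoid, 4 were higher and 3 lower, near the shares over all genes, among them Mgme1, a nuclease of mitochondrial DNA (1.11, adjusted p = 2.71e-07), Atad3a (0.69, adjusted p = 6.54e-06), Top1mt, a topoisomerase (-0.44, adjusted p = 7.08e-05), and Rnaseh1 (-0.30, adjusted p = 0.00142).

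The nuclear subunits of the respiratory chain, complex II included, fell more often than they rose. Of 77 tested, 52 were lower and 8 higher, with a median of -0.31, against 31.9% lower and 30.3% higher over all genes. In complex IV, all 12 nuclear subunits were lower, with a median of -0.70. Cox6b1 went from 258 ± 10.8 to 98.0 ± 4.07 FPKM (-1.39, SE 0.07, adjusted p = 6.6e-08) and Ndufa4 from 100.1 ± 2.06 to 41.2 ± 1.87 FPKM (-1.26, SE 0.05, adjusted p = 3.72e-08). In complex I, 24 of 37 were lower and 4 higher (median -0.25), with Ndufs6 (-1.04, adjusted p = 2.32e-07) and Ndufa3 (-0.95, adjusted p = 2.58e-07) lower and Ndufa2 (0.35, adjusted p = 0.000942) and Ndufb2 (0.27, adjusted p = 0.00784) higher. In complex III, 4 of 9 were lower and 2 higher, with Uqcr11 (-1.09, adjusted p = 3.44e-07) and Uqcrh (-0.95, adjusted p = 3.37e-07) lower and Uqcrq (0.75, adjusted p = 5.69e-06) and Cyc1 (0.24, adjusted p = 0.0294) higher. In complex V, 10 of 15 were lower and 2 higher, with Usmg5 (-0.82, adjusted p = 4.84e-07) and Atp5g3 (-0.58, adjusted p = 1.2e-05) lower and Atp5g1 (0.29, adjusted p = 0.00452) and Atp5f1 (0.26, adjusted p = 0.0146) higher. Of these, Cyc1 was not called without low arginine replicate 1 or 2 or standard arginine replicate 3 (adjusted p = 0.106, 0.0514 and 0.0882), nor Atp5f1 without low replicate 2 or 3 or standard replicate 1 (adjusted p = 0.0504, 0.0547 and 0.0582). Complex II, which has no mitochondrially encoded subunit, had 2 of 4 lower, Sdha (-0.36, adjusted p = 0.000296) and Sdhc (-0.31, adjusted p = 0.000809).

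In high against standard arginine, 0 of the 141 tested genes of these lists were called (limma), against 0.309% of all genes. At an unadjusted p under 0.05 there were 13 of the 141, against 14.3% of all genes. The 77 subunits had a median of 0.01, against 0.24 for the mitochondrially encoded mRNAs. In high against low arginine, 52 of the 77 subunits were higher and 8 lower, against 32.3% and 29.2% of all genes. Mterf3, Mgme1, Pde12, Gabpb1, Esrra, Ndufa2, Ndufb2, Ndufs6, Ndufa3, Uqcrh, Atp5f1, Usmg5 and Slirp overlap a gene on the other strand, and their values are uncertain for that reason. The pseudogenes of the chromosome 1 block gave 0.828 to 12.7 FPKM. In low against standard arginine, 5 of the 7 were lower, against 31.9% of all genes. They included Gm28438, the copy of mt-Nd3 (-0.90, adjusted p = 0.00297), Gm28437, that of mt-Co3 (-0.60, adjusted p = 0.00539), and Gm10925, that of mt-Atp6 (-0.49, adjusted p = 0.000383). Gm28661, the copy of mt-Co2, was not called (-0.36, adjusted p = 0.281). Since reads in them cannot be told apart from those of their mitochondrial originals, these values show no change of the pseudogenes themselves.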

How the data were processed

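Gene expression was measured by RNA sequencing in 9 libraries, 3 per arginine concentration. The authors deposited FPKM per gene with gene lengths, per the file headers. RNA was extracted with Trizol and libraries were made with a directional kit, per the labels' protocols. CASAVA 1.8, HISAT2 2.0.5 and featureCounts 1.5.0-p3 are listed per the submitters' processing notes. Their genome build is mm9. However, 54495 gene IDs also occur in GENCODE M21, 98.33% of these and all 37 members have its GRCm38 start and end, and coordinates are therefore GRCm38. Read length, strand setting and treatment of reads that match several places are not given in the sources used here.

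FPKM multiplied by gene length gave whole reads in 100% of values, to within 0.01, and these rebuilt reads gave depth and shares. The library size behind the deposited FPKM was 0.96206 to 1.0767 times the reads in genes, which shows that the values had been scaled between libraries. This factor was 1.0483 to 1.0767 in low, 0.96206 to 1.016 in standard and 0.96886 to 0.9943 in high arginine. The scaling therefore lowers low arginine values against the other groups. As FPKM is not a count, log2(FPKM + 1) was analysed with limma 3.58.1 in R 4.3.3, in 1 fit of all 9 libraries with a prior variance that followed expression and 6 residual degrees of freedom. The 12300 genes with FPKM of at least 1 in at least 3 libraries were tested, and p-values (two-sided) were adjusted by Benjamini-Hochberg over them in each contrast, with a threshold of 0.05. Changes on this scale understate those of low genes. Of the members, 24 had FPKM of at least 1 in every library, while mt-Atp8 and mt-Tq passed the filter with no low arginine library at that level, so counts over tested members are not counts over all. The procedure was tested on simulated data with a set spread between libraries, for low minus standard arginine. It recovered 16% of 50 genes changed 1.25-fold, 80% of those changed 1.5-fold and 92% of those changed 2-fold. False calls were 4.64% of all calls. Small changes, such as most of those in high against standard arginine, may therefore go uncalled.

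Nuclear copies were sought with BLAST 2.17.0 (blastn, E-value up to 1e-05) in GENCODE M21 transcripts. Members and gene lists were chosen with earlier results of these data known. By the naming rule, all members that passed the filter were named, with up to 2 higher and 2 lower genes per nuclear list, taken by smallest p in low against standard arginine, and 6 genes whatever their result (Tfam, Polrmt, Tfb2m, Lrpprc, Slirp, Ppargc1a). Prorp, Ndufb1 and Atp5md were found as 1110008L16Rik, Ndufb1-ps and Usmg5. Nothing in the labels says that libraries came from separate cultures, and p-values then reflect the spread of these samples alone, which may be technical. Alternatives covered the pseudocount, filters, scaling, library weights, the variance model, leaving out each library and a replicate block.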

Additional observations from a re-analysis of the deposited data

How the results depend on the processing

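In low against standard arginine, mt-Rnr1 stayed higher and 10 genes (mt-Nd1, mt-Nd2, mt-Co2, mt-Atp6, mt-Co3, mt-Nd3, mt-Nd4l, mt-Ti, mt-Ts2 and mt-Tl2) stayed lower, at an adjusted p under 0.05, under every alternative run that tested them. The 3 members called higher became 6 after quantile normalization and 5 with a replicate block, and ranged from 1 to 4 when each library was left out, with 1 without standard arginine replicate 2. The 19 called lower were 14 with no filter and after quantile normalization, and 15 to 20 when each library was left out. mt-Co1 reversed to 0.24 and mt-Tp to 0.07 after quantile normalization. The causes were not tested.

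In high against standard arginine, the 0 members called higher became 8 with array weights and were 0 in each leave-one-out fit (range 0 to 0), as were those called lower (0 to 0). In high against low arginine, the 22 higher were 18 with no filter and 21 to 23 when each library was left out. The 2 lower became 5 after quantile normalization and 4 with a replicate block, and were 2 to 4 when each library was left out, with 4 without low arginine replicate 1.

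Taking Ins1 and Ins2 reads out of the denominator raises the share of reads from the mitochondrial genome by construction. It moved from 0.721 to 0.778% in low, from 0.865 to 0.927% in standard and from 0.947 to 1.01% in high arginine. Every low library still lay below every standard and high one. Leaving out each library gave 0.699 to 0.744% in low, 0.82 to 0.891% in standard and 0.916 to 0.976% in high arginine. In TPM, the median change of all genes was 0.112 for low minus standard and -0.109 for high minus low arginine. Deviations of same-numbered libraries correlated at -0.0355 to 0.243, above 0.1 in 6 of 9 pairs. These include all 3 low with high pairs (0.153 to 0.243). Low arginine replicate 3, however, correlated better with standard replicate 2 (0.0436) than with standard replicate 3. The rule asked for every pair above 0.1, and the labels name no shared source, so the numbers were not taken as a pairing. With the replicate block, mt-Co1 was called lower (-0.22, adjusted p = 0.00531) and mt-Tn (0.28, adjusted p = 0.00459) and mt-Tc (0.23, adjusted p = 0.0498) higher in low against standard arginine. Few reads limit mt-Atp8 and most tRNAs, though not mt-Tp, mt-Tc, mt-Tn or mt-Tl2.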
